A study of Mus musculus with 6 samples.

Results

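The cluster of miR-302 and miR-367 is a run of 5 microRNA hairpins that are transcribed together. Its members were the array probes whose name is miR-302, miR-302a to miR-302d or miR-367, with any arm or star ending. This gave 5 of the 334 mouse microRNA probes: mmu-miR-302, mmu-miR-302b*, mmu-miR-302c*, mmu-miR-302d and mmu-miR-367, each printed as 4 spots and written below without the species prefix. Probes entered the tests if more than 0.5 of their spots exceeded background clearly, in one dye or the other, on at least 2 arrays. Of the 5 members 4 did so and miR-302b* did not; of all 334 probes 40 did not. miR-302, miR-302d and miR-367 passed on all 6 arrays, while miR-302c* passed on both RQ arrays and 1 WT array and so entered only through RQ, where it is high; its differences from RQ are given without a test and are not counted as calls. The RNA came from embryoid bodies, aggregates in which mouse embryonic stem cells begin to differentiate, of strain 129S7/SvEv Brd-Hprt b-m2, collected on day 7. The stem cells carried human BRCA1 as the wild type (WT), with M1652I (MI) or with R1699Q (RQ), with 2 biological replicates and so 2 arrays per group. Nothing in the labels says whether replicates came from separate cultures or how many clones stood for a genotype, so p-values measure only the spread between these arrays, which may be technical. Total RNA was labelled with a dye at its 3′ end; per the labels Cy3 marks the group's own RNA and Cy5 wild-type embryoid body RNA on all 6 arrays, with no dye swap.

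MicroRNAs are short RNAs that pair with target messages mainly through the seed, bases 2 to 8 from their 5′ end, and lower the output of those messages. The cluster is known for its high expression in pluripotent cells and the early embryo, where miR-302 microRNAs act on cell cycle and differentiation genes, and its output falls as cells differentiate. miR-302a to miR-302d form one seed family and miR-367 belongs to another, so the common transcript yields microRNAs with separate sets of targets. A star in an older name marks the arm of the hairpin that was seen less often.

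In the RefSeq annotation of GRCm38.p6 the 5 hairpins lie on chromosome 3, on the plus strand, from 127545228 to 127545807, a span of 580 bases within the bounds of the Larp7 gene. The order is Mir302b (127545228 to 127545301), Mir302c (127545363 to 127545430), Mir302a (127545496 to 127545564), Mir302d (127545624 to 127545689) and Mir367 (127545733 to 127545807). Each probe is a DNA of 60 bases that carries the complement of its microRNA on a stem common to all. The probe sequences are shown because they settle which hairpin and which arm each old name stands for; the capitals mark the longest stretch complementary to a hairpin of the cluster.
miR-302: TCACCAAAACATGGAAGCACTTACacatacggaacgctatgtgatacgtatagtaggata
miR-302d: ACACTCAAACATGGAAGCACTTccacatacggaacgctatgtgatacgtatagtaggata
miR-367: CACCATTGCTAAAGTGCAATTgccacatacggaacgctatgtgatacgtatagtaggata
miR-302c*: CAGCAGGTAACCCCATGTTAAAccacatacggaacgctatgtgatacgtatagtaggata
miR-302b*: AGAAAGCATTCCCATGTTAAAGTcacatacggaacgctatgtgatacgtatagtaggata

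The probe named miR-302 matched the Mir302a hairpin over 24 bases and is miR-302a by sequence. The miR-302d probe matched Mir302d over 22 bases and the miR-367 probe matched Mir367 over 21. The miR-302c* and miR-302b* probes matched the other arm, the 5p arm, of Mir302c over 22 bases and of Mir302b over 23. The 3p arms of Mir302b and Mir302c have no probe among the members. The complementary stretch of the miR-302d probe differed from Mir302c at 2 of 22 bases, from Mir302a at 3 and from Mir302b at 3; that of the miR-302 probe differed from Mir302b at 3 of 24 bases and from Mir302c and Mir302d at 4 each. Signal could be shared between such close sequences, and this was not tested. The miR-367 probe differed from every miR-302 hairpin at 9 to 11 of 21 bases.

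The mature RefSeq sequences below show what the arms share, with the seed in capitals. The 3p arms of Mir302b and Mir302d have the seed AAGUGCU, which the stem-cell microRNAs miR-294 and miR-295 of the miR-290 cluster also carry. The annotated 3p arm of Mir302c starts at a later base and so shows the same letters shifted. The seed of miR-367, AUUGCAC, recurs in miR-25, miR-32, miR-92 and miR-363, while the 5p arms of Mir302b and Mir302c carry CUUUAAC.
miR-302b-3p: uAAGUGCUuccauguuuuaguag
miR-302c-3p: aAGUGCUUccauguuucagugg
miR-302d-3p: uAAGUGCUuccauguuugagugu
miR-294-3p: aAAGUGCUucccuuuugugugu
miR-295-3p: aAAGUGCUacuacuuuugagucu
miR-367-3p: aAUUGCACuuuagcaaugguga
miR-25-3p: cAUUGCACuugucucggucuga
miR-363-3p: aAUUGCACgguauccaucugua
miR-302b-5p: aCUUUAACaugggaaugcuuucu
miR-302c-5p: gCUUUAACaugggguuaccugc

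Some facts of the arrays bear on all values of the cluster. First, the 2 dyes differed on arrays whose labels name one RNA source: on the WT arrays, for which the labels name wild-type embryoid bodies in both dyes, the summed net signal of 4 stem-cell markers (miR-290, miR-293, miR-294 and miR-295) was 44179 to 78949 in Cy3, while over all arrays it was 104 to 156 in Cy5. Most lists of markers of differentiated cells ran the other way, with blood markers the furthest, at 1047 to 1657 in Cy3 and 71102 to 72723 in Cy5. Epithelial markers overlapped between the dyes, at 1257 to 2754 in Cy3 and 2392 to 2936 in Cy5. The ratio of Cy3 over Cy5 is therefore not read as a level against wild type, and only differences between groups are. Second, negative control spots had mean net Cy3 signals of 93.05 and 103 in RQ, above the range of 43.8 to 59.4 seen in WT and MI. Both WT arrays lay in one row of the slide and all MI and RQ arrays in the other, so row and WT against mutant cannot be told apart. Within the groups of 2 arrays, the number of arrays limits the precision.

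In the group's own dye, miR-302d and miR-302 were bright in WT and RQ embryoid bodies and dim in MI, and miR-367, at a lower signal, was dimmest in MI too. Net Cy3 is the spot's mean signal less its local background, in scanner units, averaged over a probe's spots that were not marked as outliers. Ranges of single spots include the marked ones. For miR-302d it was 1628 and 1289.8 on the WT arrays, 353 and 375.3 on the MI arrays and 1290.5 and 1366 on the RQ arrays. Both MI arrays lay well below the other 4, and WT and RQ overlapped. All 4 spots of miR-302d cleared background in Cy3 on each of the 6 arrays, with single spots from 984 to 2204 on WT, 287 to 538 on MI and 1048 to 1632 on RQ.

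For miR-302 the net Cy3 signal was 1041 and 482 on the WT arrays, 159 on MI replicate 1 and 669.5 and 638 on the RQ arrays; the spots of MI replicate 2 ran from 177 to 228. The MI arrays were again the lowest, while the WT arrays stood on either side of RQ. The spots of WT replicate 1 (951 to 1194) and of WT replicate 2 (423 to 543) did not overlap, so the gap lay between the arrays and not among spots. No other member showed such a gap: the log2 ratios of the WT arrays differed by 0.91 in miR-302, by 0.15 in miR-302c*, by 0.13 in miR-302d and by 0.02 in miR-367.

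For miR-367 the net Cy3 signal was 142.7 and 147 on the WT arrays, 69.1 and 79.8 on the MI arrays and 201 on both RQ arrays. The 3 groups did not overlap in net Cy3. Less each array's negative controls, WT was at 83.2 and 103.3 and RQ at 108.1 and 97.9, so WT and RQ then overlapped. The MI values were close to the negative controls of their own arrays, 43.8 and 59.4. Less the negative controls, the WT mean of miR-367 was 93.25, the MI mean 22.9 and the RQ mean 103.

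**Figure D1:**
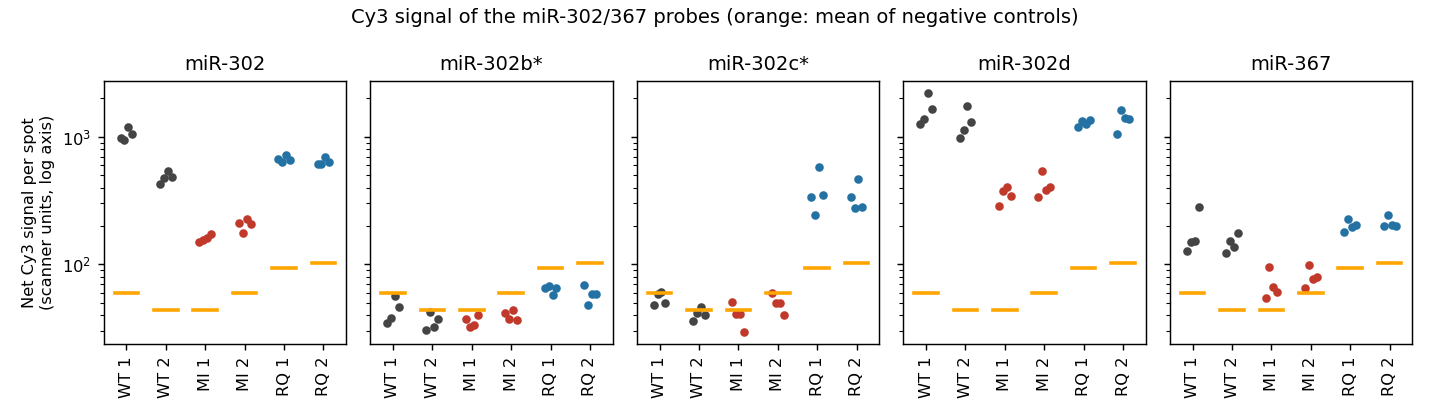
Net Cy3 signal of each spot (scanner units, log axis) of the 5 probes on the 2 WT (grey), 2 MI (red) and 2 RQ (blue) arrays; each point is 1 spot and the orange bar is that array's mean over negative control spots. miR-302 and miR-302d are lowest on MI, miR-302b* stays at or below the controls, and miR-302c* is above them on RQ.

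Against WT, MI embryoid bodies had less miR-302, miR-302d and miR-367, and all 3 were called, while miR-302c* was not. A probe was called at an adjusted p under 0.05 in limma's fit of log2 Cy3 over Cy5, with Benjamini-Hochberg adjustment over all tested probes; 15.6% of these were called in this comparison, 6.46% lower and 9.18% higher. The log2 ratio of miR-302d was 4.15 and 4.02 on the WT arrays and 2.39 and 2.56 on the MI arrays. It fell by 1.61 ± 0.12 (SE, n = 2 arrays per group; limma adjusted p = 0.00280), and WT and MI did not overlap. miR-302 had log2 ratios of 3.72 and 2.81 in WT and 1.35 and 1.60 in MI and fell by 1.79 ± 0.29 (limma adjusted p = 0.0132). miR-367 had 1.33 and 1.31 in WT and 0.55 and 0.52 in MI and fell by 0.79 ± 0.10 (limma adjusted p = 0.00604). Ordered from the lowest change, miR-302 and miR-302d were first and second and miR-367 was 13th of all tested probes, whose median change was 0.11. Groups that do not overlap were common, at 68.4% of the probes tested.

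The reference dye held little signal of these members. In Cy5 at most 1 of the 4 spots of miR-302, miR-302d or miR-367 was well above background on any array. Net Cy3 was also lowest in MI, without the reference dye. The mean in WT was 4.17 times that in MI for miR-302, 4.01 times for miR-302d and 1.95 times for miR-367, while the median probe was at 1.06 times WT in MI. The size for miR-302 rested on WT replicate 1: without that array WT was at 2.64 times MI for miR-302 against 3.54 times for miR-302d, and the fitted changes were -1.34 and -1.55, so that miR-302d then changed more. Less each array's negative controls, WT was at 5.41 times MI for miR-302, 4.50 times for miR-302d and 4.08 times for miR-367. The 3 calls held in each of the 15 settings that kept all arrays of both groups. With an MI or WT array left out, the lone array of that group is assumed to vary like the other groups, which supply the spread. Under that assumption miR-302d was called with any 1 array left out, miR-302 was not called without MI replicate 1 (limma adjusted p = 0.101) or MI replicate 2 (limma adjusted p = 0.0640), and miR-367 was not called without MI replicate 1 (limma adjusted p = 0.0601). In bulk RNA, fewer cells that hold a microRNA and less of it per cell cannot be told apart.

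Among the marker lists, the summed signal of epithelial markers was lowest in MI. The 7 epithelial markers had a summed net Cy3 of 1859 to 2754 in WT, of 1257 to 1485 in MI and of 2188 to 2218 in RQ, with 1 of the 7, miR-203, above background on no array in Cy3. Their highest signal in each group was that of miR-200a. miR-200a was the 1 marker of the list called lower in MI against WT, by 1.59 (limma adjusted p = 0.00464), where 6.46% of all tested probes were called lower. miR-205 was at 0.48 and miR-203 at 0.22, while miR-200b was at -0.37, miR-200c at -0.30, miR-429 at -0.27 and miR-141 at -0.14. None of these was called. In RQ against MI, 0 of the 7 were called (limma, 0 at an unadjusted p under 0.05), where 10.9% of all tested probes were. In RQ against WT miR-200a was called lower, at -1.44 (limma adjusted p = 0.00808), and miR-205 higher, at 0.61 (0.0224). The stem-cell markers, of which 4 of 7 were on the array, were at 44179 to 78949 in WT, 44997 to 58036 in MI and 59747 to 62576 in RQ, so that WT and MI overlapped. The part of either list in the members' change was not tested. Other lists did not follow the members' order. Feeder or mesenchymal markers (8 on the array) were at 2846 to 4017 in WT, 3163 to 3995 in MI and 4824 to 5196 in RQ. Muscle and heart markers (5) were at 1363 to 1409, 2003 to 2867 and 2542 to 3379. Neural markers (6) were at 1097 to 1155, 1073 to 1239 and 1716 to 1803. Blood markers (6) were at 1048 to 1099, 1047 to 1169 and 1517 to 1657, and endoderm and liver markers (5) at 460 to 488, 508 to 599 and 857 to 899.8. Negative controls, higher in RQ, were not taken off these sums, so a higher sum in RQ is not read as a gain. In RQ minus WT these 5 lists had, in this order, 0, 0, 1, 2 and 0 markers called higher and 3, 2, 0, 1 and 0 lower. Of all tested probes 7.48% were called higher and 13.9% lower. Of the endoderm and liver markers 2 were above background in Cy3 on no array.

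**Figure D2:**
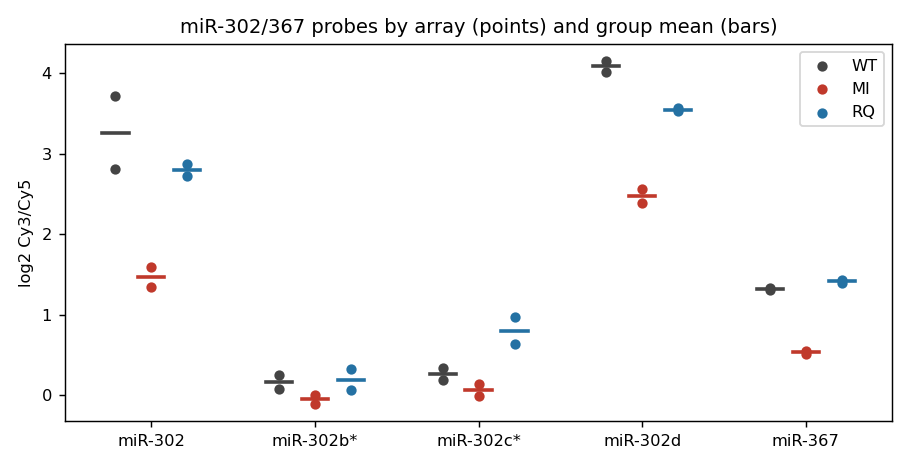
Normalised log2 Cy3 over Cy5 of each member on each array (points: WT grey, MI red, RQ blue) with the group mean (short bars). In miR-302, miR-302d and miR-367 both MI points lie below all WT and RQ points, and the WT points of miR-302 are 0.91 apart.

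Between the mutants, RQ embryoid bodies had more of the cluster than MI. miR-302d had log2 ratios of 3.57 and 3.53 in RQ against 2.39 and 2.56 in MI and was higher by 1.08 ± 0.12 (SE, n = 2 arrays per group; limma adjusted p = 0.0146). miR-367 had 1.43 and 1.40 in RQ against 0.55 and 0.52 in MI and was higher by 0.88 ± 0.10 (limma adjusted p = 0.0146). miR-302 had 2.87 and 2.73 in RQ against 1.35 and 1.60 in MI, a difference of 1.33 ± 0.29 (limma adjusted p = 0.0394). So the 3 members seen on every array were called higher, where 3.06% of all tested probes were called higher, 7.82% lower and 10.9% in either direction.

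This count rests on the processing, including how the loess curve was weighted. The call of miR-302, and the 32 calls over all tested probes, came from a curve fitted on mouse microRNA spots without those marked as outliers, a choice made after the counts under several weightings had been seen. Under the 3 other weightings only miR-302d and miR-367 were called, and 10 to 19 of all probes were; miR-302 was then at an adjusted p of 0.0548 to 0.0698 in limma's fit. miR-302d and miR-367 were called in all 15 settings that kept every array of the groups, and miR-302 in 7 of them. It was also lost with loess on bright spots (limma adjusted p = 0.0997), the processed signals (0.0682) and no background subtraction (0.0616). The same held with outlier spots kept (0.0563) and with no filter on dim probes (0.0578). Without any single MI or RQ array no member was called (limma; all 3 at an unadjusted p under 0.05 in each case), and 0 or 1 of all tested probes were, with 47 to 60 at an unadjusted p under 0.05; the differences of the members kept their sign. Groups did not overlap in 65% of the probes tested.

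RQ and WT differed less. miR-302d fell by 0.54 ± 0.12 on the log2 scale (SE, n = 2 arrays per group; limma adjusted p = 0.0256), from 4.15 and 4.02 in WT to 3.57 and 3.53 in RQ, and was the 1 member called, where 21.4% of all tested probes were called, 13.9% lower and 7.48% higher; groups did not overlap in 62.6%. That call is relative to the other probes: its mean net Cy3 was 0.910 times WT in RQ, while the median tested probe was at 1.35 times. In Cy5 the median tested probe was at 0.834 times WT in RQ. miR-302d was at 1.60 times there (mean 16.05 in WT and 25.66 in RQ), with 1 of its 4 spots well above background on each array. It was not called without WT replicate 1 (limma adjusted p = 0.0741), RQ replicate 1 (0.136) or RQ replicate 2 (0.110). miR-302 had 2.87 and 2.73 in RQ against 3.72 and 2.81 in WT, so that the groups overlapped, a difference of -0.46 ± 0.29 (limma adjusted p = 0.313). Its value hung on which WT array was used: -0.92 without WT replicate 2 (limma adjusted p = 0.0243) and -0.01 without WT replicate 1 (0.982). miR-367 differed by 0.09 ± 0.10 (limma adjusted p = 0.546), with the sign turned in 2 other settings.

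The calls over all probes depended on the scaling. Of those called, 58.7% were higher in MI against WT with loess, 47.5% with median centring, 40.0% with loess on bright spots, 31.6% with Cy3 alone and 28.1% with the scanner's processed signals. The corresponding shares were 34.9%, 76.7%, 23.3%, 36.7% and 32.1% in RQ against WT and 28.1%, 70.0%, 40.0%, 48.5% and 40.7% in RQ against MI. The falls of miR-302, miR-302d and miR-367 in MI were called under each of these 5 scalings. The median change of all probes moved to as low as -0.26 in RQ against WT with the processed signals.

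**Figure D3:**
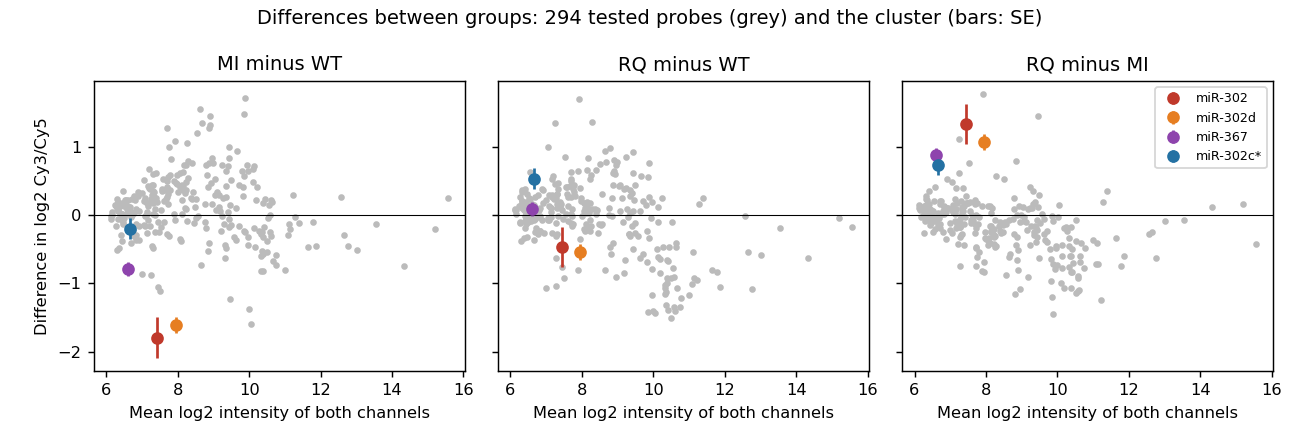
Difference in log2 Cy3 over Cy5 against the mean log2 intensity of both dyes for all tested probes (grey) and the 4 tested members (colour, bars are SE), in the 3 comparisons. miR-302 and miR-302d are the lowest points in MI minus WT and lie near the top in RQ minus MI.

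miR-302c*, the 5p arm of Mir302c, behaved apart from the 3p arms: it was seen on the RQ arrays in both dyes. Its net Cy3 was 54.25 and 40.85 on the WT arrays, 37.1 and 49.98 on the MI arrays and 378 and 338 on the RQ arrays. The WT and MI values were at or below the negative controls. In Cy5, which by the labels held the same kind of RNA on every array, it was 14.6 and 9.8 in WT, 9.9 and 12.4 in MI and 84.75 and 95.5 in RQ. In both dyes the RQ arrays stood alone, and all 4 spots were well above background there in both. A rise in both dyes was not particular to this probe: the mean net signal of miR-452 in RQ was 3.73 times WT in Cy3 and 3.03 times in Cy5. No fold against WT is given, since WT was not above the negative controls.

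Because both dyes rose, the ratio of miR-302c* moved much less than either. It was 0.34 and 0.19 in WT, -0.01 and 0.14 in MI and 0.97 and 0.63 in RQ, and RQ minus WT was 0.54 ± 0.15 (SE, n = 2 arrays per group). The difference was 1.82 with Cy3 alone, 0.72 with median centring and -0.30 with the processed signals, so its direction turned with the processing. In RQ minus MI the log2 ratio differed by 0.74, and by 0.24 with the processed signals. In Cy3 normalised between arrays miR-302c* was at least 2.98-fold higher in RQ than in MI. This is a bound, since it was not well above background on the MI arrays, and one open to dye bias. In WT it cleared local background on 1 of the 2 arrays, though it was below the negative controls there. MI minus WT was -0.20 ± 0.15 (SE) at signals no higher than the controls. The cause of the rise in the reference dye was not tested.

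**Figure D4:**
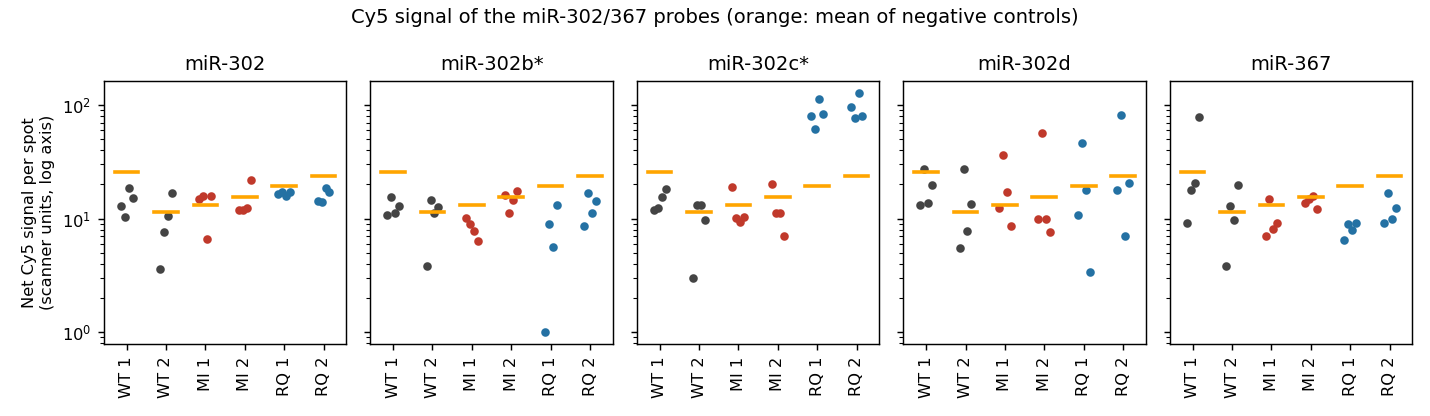
Net Cy5 signal of each spot (scanner units, log axis; values under 1 are drawn at 1) of the 5 probes on the same arrays, with the array's mean over negative control spots in orange. Only miR-302c* on the 2 RQ arrays (62 or more) lies above the controls with all its spots.

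miR-302b*, the 5p arm of Mir302b, was not measurable. Its net Cy3 was 45.5 and 35.7 in WT, 35.8 and 39.9 in MI and 63.75 and 58.4 in RQ, below the negative control mean on every array. Of its 24 spots, 1 was well above background in Cy3, on WT replicate 1, and 0 in Cy5. It was not tested and no fold is given.

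Members were compared with each other on the log2 ratio of each array, as a description. miR-302 minus miR-302d was -0.43 and -1.22 in WT, -1.04 and -0.96 in MI and -0.70 and -0.80 in RQ, so the groups overlapped, and the mean shifted by -0.18 from WT to MI and by 0.26 from MI to RQ. miR-302d minus miR-367 was 2.82 and 2.71 in WT, 1.84 and 2.04 in MI and 2.14 on both RQ arrays. WT lay above both mutants, with a group difference of -0.82 in MI and -0.63 in RQ against WT. The gap in MI varied with the background correction: with an offset of 10 in place of 50 the change of miR-367 was -1.25 and that of miR-302d -1.82, and with the processed signals they were -1.72 and -2.23. In RQ against MI the difference of miR-302d exceeded that of miR-367 by 0.19, and this order turned with an offset of 10 (1.13 against 1.38) and with the processed signals (1.20 against 1.62). Less the negative controls, RQ was at 3.94 times MI for miR-302d and at 4.51 times for miR-367.

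**Figure D5:**
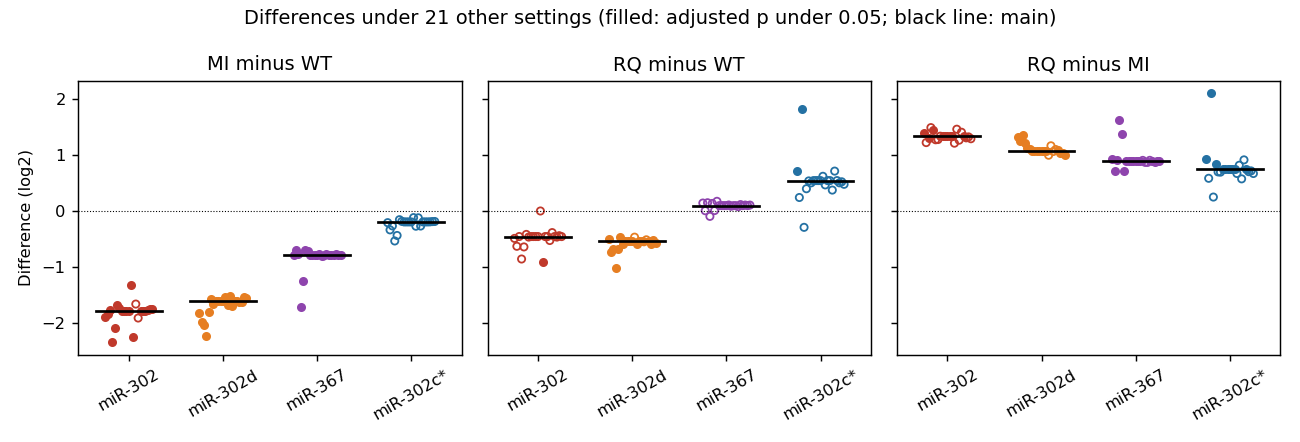
Difference (log2) of each tested member under 21 other settings, with filled points where the adjusted p was under 0.05, open points where it was not, and a black line at the main value. miR-302, miR-302d and miR-367 stay below 0 in MI minus WT, and miR-302c* crosses 0 in RQ minus WT.

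The array held 2 other probes found to carry the seed of miR-302d and 4 that of miR-367, and none was called in MI minus WT. Of all tested probes 15.6% were called in that comparison, 21.4% in RQ minus WT and 10.9% in RQ minus MI. Seed sharers without a probe were not measured. miR-294 and miR-295, with the seed of miR-302d, were at -0.37 ± 0.20 (limma adjusted p = 0.222) and -0.43 ± 0.32 (0.357) in MI minus WT. In RQ minus WT both were called lower, by 1.51 and 1.16 (limma adjusted p = 0.00808 and 0.0486). The calls held with the processed signals (-1.50 and -0.95, limma adjusted p = 0.00329 and 0.0265). With loess on bright spots miR-294 was called (-1.41, 0.0162) and miR-295 was not (-1.24, 0.110). Neither was called with median centring (-0.34, limma adjusted p = 0.232, and -0.48, 0.221) or with Cy3 alone (-0.09, 0.564, and -0.42, 0.325). Of the 4 microRNAs with the seed of miR-367, 0 were called in MI minus WT (limma, 0 at an unadjusted p under 0.05), with a median of -0.03 beside 0.11 over all probes; miR-363 was at -0.16, miR-25 at -0.05 and miR-32 at 0.02. In RQ minus MI all 4 differences were positive, from 0.02 to 0.62, and 0 were called (2 at an unadjusted p under 0.05). Whether the members' differences exceed those of seed sharers was not tested.

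In the wider stem-cell and growth-linked families, 1 probe was called in MI minus WT, where 15.6% of all tested probes were called. Of the 7 tested probes of the miR-290 cluster, which is highly expressed in embryonic stem cells, 0 were called in MI minus WT (limma, 3 at an unadjusted p under 0.05), with a median of 0.34; miR-292-5p was at 0.43, miR-295 at -0.43 and miR-290 at 0.41. In RQ minus WT 2 were called lower, where 13.9% of all tested probes were, and in RQ minus MI 1, miR-294, where 7.82% were. That call of miR-294 held with the processed signals (-1.46, limma adjusted p = 0.00535). It was lost with median centring (-0.28, limma adjusted p = 0.375) and with loess on bright spots (-0.83, 0.0928). The sign turned with Cy3 alone (0.08, 0.683). Mean net Cy3 of miR-294 was 26243 in RQ and 21818 in MI. In the family of miR-17-5p, miR-20a, miR-20b, miR-93, miR-106a and miR-106b, whose seed resembles that of miR-302 with a shift, 1 of 6 was called lower in MI, miR-17-5p at -0.46 (limma adjusted p = 0.0405; not called under the 4 other scalings), while miR-93 was at -0.49 and miR-106b at 0.30. The let-7 family, which accumulates as cells differentiate, had 0 of 9 called in MI minus WT (limma, 2 at an unadjusted p under 0.05), with let-7i at 0.65, miR-98 at 0.53 and let-7e at 0.41. In RQ minus WT 3 of the 9 let-7 probes were called lower (let-7a, let-7f and let-7g), where 13.9% of all tested probes were. Of the 3, let-7f was also called with Cy3 alone and none with median centring. let-7b and let-7c went the other way: they were at 0.17 and 0.25 with loess, and were called higher with median centring (2.02 and 2.06; limma adjusted p = 0.000591 and 0.000113), with Cy3 alone (1.40 and 1.35; 0.0113 and 0.0204) and with the processed signals (1.19 and 1.29; 0.0112 and 0.00912). let-7e and let-7i were called higher with median centring (1.13 and 0.43; 0.0337 and 0.0365). The family thus had no single direction in RQ, and it changed with the scaling; let-7b and let-7c were named after their values were seen.

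By root mean square difference of the mean-centred log2 ratios over the 6 arrays, a description in which probes share arrays and dyes, the nearest member of miR-302 was miR-302d (0.25). Outside the cluster miR-26b (0.37), miR-499 (0.51) and miR-210 (0.52) were nearest to miR-302, and the same 3 to miR-302d, with miR-499 at 0.34, miR-26b at 0.35 and miR-210 at 0.37. miR-26b fell by 1.23 ± 0.19 in MI (limma adjusted p = 0.0114) and was higher in RQ than in MI by 1.46 ± 0.19 (0.0146). miR-499 and miR-210, a hypoxia-induced microRNA, fell in MI by 1.05 and 1.11 and in RQ by 0.77 and 0.92. Nearest to miR-367 were miR-34a (0.17), a p53 target, miR-374-5p (0.24) and miR-187 (0.26), and to miR-302c* miR-363 (0.12), miR-187 (0.14) and miR-695 (0.19). Within the cluster miR-367 and miR-302c* were nearest to each other (0.27). Each was thus closer to the outside probes named than to any tested member.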

How the data were processed

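The members and all lists were chosen with earlier results of these data known. Per the file headers, the deposited files are output of Agilent Feature Extraction, version 9.5.1.1, and give intensity per spot and dye on a linear scale. The log10 ratio of processed Cy5 over Cy3 in them was computed by the authors' scanner software, per the file headers; the deposited value table holds minus that log10 ratio, with a largest difference of 0. Each file lists 1932 features, of which 1336 are spots of 334 mouse probes. Mean signals were corrected by normexp (offset 50) on the local background and normalised by loess within arrays in limma 3.58.1 (R 4.3.3). Control spots and spots marked as outliers (60 to 99 mouse spots per array) had no weight in the curve. Outlier spots were left out of probe means of log2 Cy3 over Cy5 and of net signals. In all, 5 spot weightings of the loess fit were tried; this one was kept after their counts of calls had been seen, because it matched an earlier processing of these files, and the 3 that gave other counts are given as alternatives.

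Group means were compared with lmFit and eBayes on all 6 arrays, with no replicate block, and adjusted by Benjamini-Hochberg over all tested probes at 0.05. An exact permutation test of 2 arrays against 2 was not used. The fit was tested on simulated data. Names follow a fixed rule: every member, up to 3 probes of each related list with the largest change in MI minus WT, and the 3 probes with the profile nearest to each tested member; other names were chosen after their values were seen. Alternatives were other scalings, offsets, filters, weightings, a replicate block and leaving out each array; using negative controls as background was chosen after seeing the data. Probes were matched to RefSeq sequences (286 of 334 at 15 or more shared bases). The mature sequence of miR-302a-3p was not used here.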

Additional observations from a re-analysis of the deposited data

How the results depend on the processing

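Leaving out each array in turn gave 1 to 3 members called in MI minus WT and 6 to 63 of all probes, 0 to 2 members and 5 to 60 probes in RQ minus WT, and 0 to 4 members and 0 to 48 probes in RQ minus MI (limma; 47 to 90 at an unadjusted p under 0.05 in the last). Member counts here include miR-302c*, which entered only through RQ and whose differences from RQ are not taken as calls. So 4 in RQ minus MI stands for the 3 members seen on every array and miR-302c*. Using only the 4 arrays compared gave 27 probes in MI minus WT against 46. In RQ minus WT, median centring and Cy3 alone each gave 2 members against 1, the added one being miR-302c*. In RQ minus MI, 2 members against 4 were called with loess on bright spots, with the processed signals, with no background subtraction, with outlier spots kept, and under the 3 other loess weightings. With no filter on dim probes 3 members were called there, miR-302 not among them. Probes called there were 10, 7 and 14 against 32 with loess on bright spots, no background subtraction and outlier spots kept, and 17, 19 and 10 with outlier spots left in the loess fit, other control probes kept in it, and both. The same weightings called 41, 41 and 39 probes in MI minus WT against 46, and 49, 48 and 44 in RQ minus WT against 63. The weighting kept, chosen after these counts were seen, thus gave the highest count of those tried in all 3 comparisons. Signs turned in RQ minus WT for miR-302c* with the processed signals (-0.30) and for miR-367 with loess on bright spots (-0.00015) and the processed signals (-0.10).

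With the replicate block, 3, 1 and 4 members and 39, 59 and 38 probes were called in MI minus WT, RQ minus WT and RQ minus MI, and no member's call changed. Here too the 4 includes miR-302c*. Deviations of same-numbered arrays correlated at 0.18, 0.12 and 0.04, so the numbers were not taken to pair the arrays. Over the members' single differences, those of miR-302c* among them, 160 outcomes under the other settings matched the main fit in call and direction. That count includes differences that were called in neither. Of the rest, 15 lost the call, 2 gained one, both for miR-302c* in RQ minus WT, and 3 turned. With 1 array left out, 49 matched, again including differences called in neither, 22 lost the call and 1 gained one. With 2 arrays per group and signals near the negative controls, no difference of miR-302b* was detectable. miR-302c* cleared local background on 1 of the 4 WT and MI arrays, where its signal was below the negative controls.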
